A study of Neurospora crassa with 12 samples.

Results

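Glycolysis splits glucose into pyruvate and is the main entry of sugar carbon into energy metabolism in fungi. In its preparatory steps ATP is spent to phosphorylate the sugar and cut it into triose phosphates, and in its later steps ATP and NADH are recovered. Conidia are the dormant asexual spores of Neurospora crassa, and on a suitable medium they swell, push out a germ tube and grow on as branching hyphae. Transcripts of the genes for 10 enzymes of this pathway were followed through that sequence. They are the rows of the count table for hexokinase, glucokinase, glucose phosphate isomerase, phosphofructokinase, aldolase, triose phosphate isomerase, glyceraldehyde 3-phosphate dehydrogenase (gpd-1), phosphoglycerate kinase, enolase and pyruvate kinase. The genes were taken by enzyme and not by a threshold on their values, though with earlier results of these data known. All 10 of them passed the filter on low counts, among 10592 genes in the table of which 8330 were tested.

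The cultures were of the wild-type mat A strain FGSC2489, grown under constant light at 37 °C on a cellophane sheet that covered Bird medium. Stage 1 was fresh conidia (15 min), stage 2 the start of polar growth (60 min), stage 3 the extension of the germ tube (120 min) and stage 4 the appearance of hyphal branches (240 min), with 3 libraries each. These are the times of the sample titles and of the study's methods, whereas the time point tags give 15, 120, 240 and 360 min for the same groups. The medium and temperature are those of the growth protocol, the series title and the study's methods, while the source name of the samples mentions potato dextrose agar (PDA), and the times in the tags are those that the study's methods give for PDA cultures at a cooler temperature. Which labels hold was not settled here, and the grouping into stages is the same under both. Each library was made from all tissue of several plates taken in 1 collection, so that plates were pooled within a replicate, and per the growth protocol sampling followed the stage that most conidia showed under the microscope. Levels are given in CPM, counts per 1000000 counts of the library after TMM scaling, and changes as log2 of the later over the earlier stage with their standard error (SE). In such bulk samples fewer cells of one kind and less RNA per cell cannot be told apart, and CPM gives each gene only relative to the rest of the library.

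Libraries held between 42996748 and 71990884 counts. Stage 3 replicate 2 stood apart, with 37.9% of its counts in rRNA genes against 1.68% to 11.3% in the other libraries. The conidial genes eas, con-6, con-8 and con-10 were highest in stage 1, where the hydrophobin gene eas reached 11117 ± 1050 CPM (SD, n = 3), and lowest in stage 3. For eas the means of the later stages were 58.5, 5.25 and 58.8 CPM. The libraries of stage 4 were as close to those of stage 2 as replicates were to each other. The SD over genes of the log2 difference between 2 libraries was 0.168 to 0.195 for the 9 pairs across these stages. It was 0.180 to 0.187 within stage 2, 0.199 to 0.207 within stage 4 and 0.411 to 0.477 between stages 2 and 3. The data as a whole therefore do not tell the libraries of stages 2 and 4 apart, and results that use stage 4 carry that limit.

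From stage 1 to stage 2 the transcripts of every one of the 10 enzymes rose, by between 1.48-fold for glucokinase and 28.7-fold for phosphoglycerate kinase, at a step where 39.4% of the 8330 tested genes were called higher. A fold change of at least 2 was reached by 8 of the 10, against 17.8% of tested genes, the exceptions being glucokinase and glucose phosphate isomerase. After this step the levels stayed within narrow bounds, and no member moved by more than 0.38 on the log2 scale between any of stages 2, 3 and 4. The summed level of the 10 genes went from 0.298 ± 0.037% of the scaled counts in stage 1 to 1.48 ± 0.020% in stage 2, 1.42 ± 0.081% in stage 3 and 1.49 ± 0.11% in stage 4 (SD, n = 3). The plot of CPM by library and stage shows the rise from stage 1 to stage 2 for each gene. For glucose phosphate isomerase this was not the only sizeable step, with a log2 change of 0.77 to stage 2 and of -0.34 to stage 3.

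**Figure D1:**
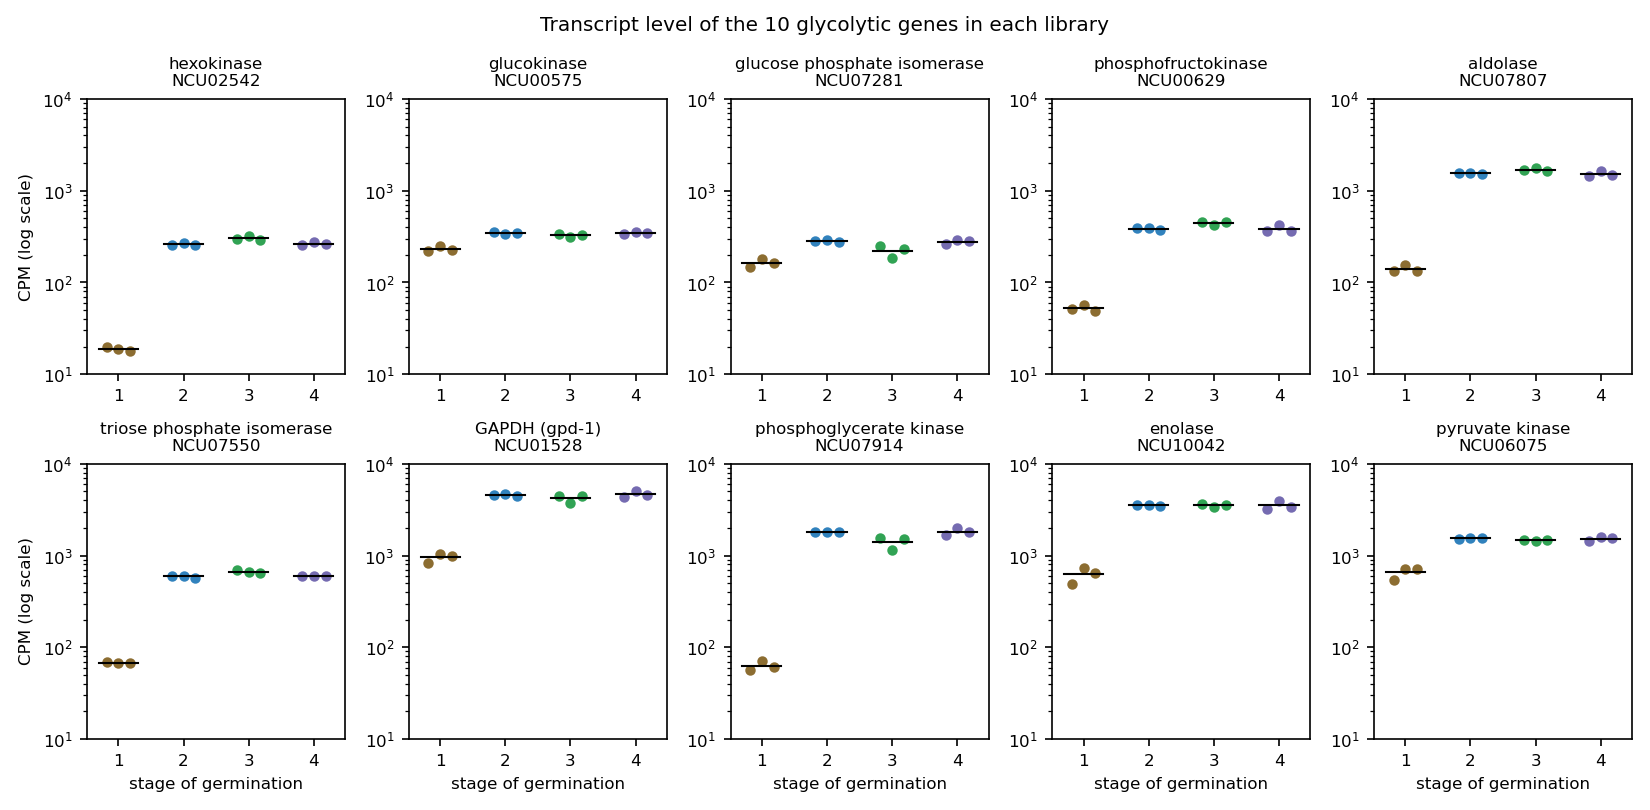
Level of each of the 10 glycolytic genes (CPM, log axis) in the 3 libraries of stages 1 to 4, with replicates 1, 2 and 3 from left to right within a stage and a line at the mean. In all 10 panels the 3 stage 1 points lie below every later point, from hexokinase at 17.9 to 20.1 CPM to gpd-1 at 834 to 1039 CPM.

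Glucose enters the pathway through hexokinase and glucokinase, which both place a phosphate on the sugar. Hexokinase (emp-1, NCU02542, chromosome I, 2674481 to 2678357 in assembly NC12) stood at 20.1, 18.7 and 17.9 CPM in the 3 stage 1 libraries. It reached 258, 271 and 258 CPM in stage 2, then 298, 318 and 289 CPM in stage 3 and 256, 277 and 262 CPM in stage 4. The groups of stages 1 and 2 lay far apart, and the rise was 13.9-fold (log2 change 3.80, SE 0.07, edgeR adjusted p = 3.55e-14).

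Glucokinase (NCU00575, with no symbol, chromosome I, 7953683 to 7958506) differed far less between stages. Its values were 223, 250 and 226 CPM in stage 1, 351, 341 and 342 CPM in stage 2, 335, 312 and 331 CPM in stage 3, and 341, 356 and 345 CPM in stage 4. Stage 1 lay below all other libraries, but by little. The 1.48-fold rise to stage 2 was the smallest of the 10 (log2 change 0.57, SE 0.06, edgeR adjusted p = 9.97e-07). Set side by side per kilobase (kb) of gene span, hexokinase had 0.101 ± 0.0099 times the level of glucokinase in stage 1 and 0.947 ± 0.038 times in stage 2 (SD, n = 3). Hexokinase thus went from the rarer kinase transcript to a level near that of glucokinase.

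Glucose phosphate isomerase turns glucose 6-phosphate into fructose 6-phosphate, and its product is shared with other sugar pathways. The gene (gpi-1, NCU07281, chromosome IV, 4532625 to 4534989) had 146, 182 and 165 CPM in stage 1, 281, 288 and 273 CPM in stage 2, 247, 185 and 231 CPM in stage 3 and 263, 293 and 280 CPM in stage 4. Stage 3 was lower than stages 2 and 4 in every library, and its replicate 2 came close to stage 1. The rise to stage 2 was 1.71-fold (log2 change 0.77, SE 0.10, edgeR adjusted p = 9.50e-06).

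Phosphofructokinase adds the other phosphate in the committed and most regulated step of the pathway. Its gene (emp-3, NCU00629, chromosome I, 7764287 to 7768767) had 52.0, 56.6 and 48.6 CPM in stage 1. Later libraries held 394, 390.5 and 374 CPM in stage 2, 450, 426 and 454 CPM in stage 3, and 366, 420 and 362 CPM in stage 4. All later libraries lay far above stage 1, and stage 3 lay above stages 2 and 4 without overlap. The rise to stage 2 was 7.37-fold (log2 change 2.88, SE 0.08, edgeR adjusted p = 8.86e-13).

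Aldolase cuts fructose 1,6-bisphosphate into triose phosphates, which triose phosphate isomerase interconverts. The aldolase gene (fba, NCU07807, chromosome V, 220460 to 223264) went from 135, 156 and 134 CPM in stage 1 to 1564, 1563 and 1506 CPM in stage 2. Its values were 1671, 1770 and 1619 CPM in stage 3 and 1434, 1636 and 1483 CPM in stage 4. No stage 1 library came near any later one, and the rise was 10.9-fold (log2 change 3.45, SE 0.08, edgeR adjusted p = 2.50e-13).

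Triose phosphate isomerase (NCU07550, with no symbol, chromosome III, 4405030 to 4406835) had the tightest stage 1 values of the 10, at 68.9, 68.1 and 66.9 CPM. Stage 2 held 605, 598 and 574 CPM, stage 3 held 689, 667 and 651 CPM, and stage 4 held 600, 603 and 597 CPM. Stage 3 was higher than its neighbours in every library, and the coefficient of variation was 1.5% in stage 1 and 0.5% in stage 4. The rise to stage 2 was 8.72-fold (log2 change 3.12, SE 0.06, edgeR adjusted p = 2.69e-14).

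Glyceraldehyde 3-phosphate dehydrogenase oxidizes the triose and forms NADH. The gene gpd-1 is also known as the clock-controlled gene ccg-7 (NCU01528, chromosome II, 3180104 to 3182245). It held 834, 1039 and 992 CPM in stage 1, 4524, 4637 and 4491 CPM in stage 2, 4457, 3716 and 4424 CPM in stage 3 and 4353, 5041 and 4541 CPM in stage 4. Stage 3 replicate 2 was the lowest library after stage 1, and stages 2 and 4 overlapped. The rise to stage 2 was 4.76-fold (log2 change 2.25, SE 0.10, edgeR adjusted p = 1.03e-10).

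Phosphoglycerate kinase carries out the step after it, in which ATP is formed. Its gene (pgk, NCU07914, chromosome IV, 1370566 to 1372853) had 56.0, 70.3 and 61.6 CPM in stage 1 and 1812, 1792 and 1790 CPM in stage 2. Stage 3 followed with 1543, 1147 and 1530 CPM and stage 4 with 1677, 1995 and 1806 CPM. The 3 libraries of stage 2 agreed within 0.7% (coefficient of variation), whereas those of stage 3 spread more widely with replicate 2 the lowest. The 28.7-fold rise to stage 2 (log2 change 4.84, SE 0.13, edgeR adjusted p = 8.90e-13) placed pgk at rank 65 among the log2 changes of the 8330 genes tested.

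Enolase forms phosphoenolpyruvate. Its gene (emp-7, NCU10042, chromosome I, 5945167 to 5948228) had 490, 733 and 652 CPM in stage 1, 3518, 3571 and 3445 CPM in stage 2, 3654, 3343 and 3582 CPM in stage 3 and 3251, 3911 and 3401 CPM in stage 4. Its stage 1 libraries varied most among the 10 genes, with a coefficient of variation of 19.8%, and stages 2 to 4 overlapped. The rise to stage 2 was 5.62-fold (log2 change 2.49, SE 0.12, edgeR adjusted p = 3.88e-10).

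Pyruvate kinase closes the pathway by passing phosphate from phosphoenolpyruvate to ADP. The gene (ace-8, NCU06075, chromosome VII, 1892860 to 1898500) had 539, 720 and 708 CPM in stage 1, 1531, 1544 and 1547 CPM in stage 2, 1489, 1437 and 1476 CPM in stage 3 and 1442, 1584 and 1550 CPM in stage 4. Stage 1 lay below all later libraries, with replicate 1 the lowest. The rise of 2.35-fold to stage 2 was the smallest among the enzymes after aldolase (log2 change 1.23, SE 0.09, edgeR adjusted p = 2.86e-08).

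In all 10 genes every stage 2 library lay above every stage 1 library, as in 41.0% of tested genes. The median log2 change was 2.69 for the 10 genes and 0.01 for all tested genes. Over the 4 stages together the joint edgeR test called all 10 and 84.3% of tested genes. Stage 3 against stage 1 gave 10 higher (40.8% of tested genes) with a median log2 change of 2.79, and stage 4 against stage 1 gave 10 higher (39.5%) with a median of 2.68. These comparisons share the stage 1 libraries. The rise from stage 1 to stage 2 was called in all 10 genes with any single library left out, and also when all stage 4 libraries were left out of the fit.

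**Figure D2:**
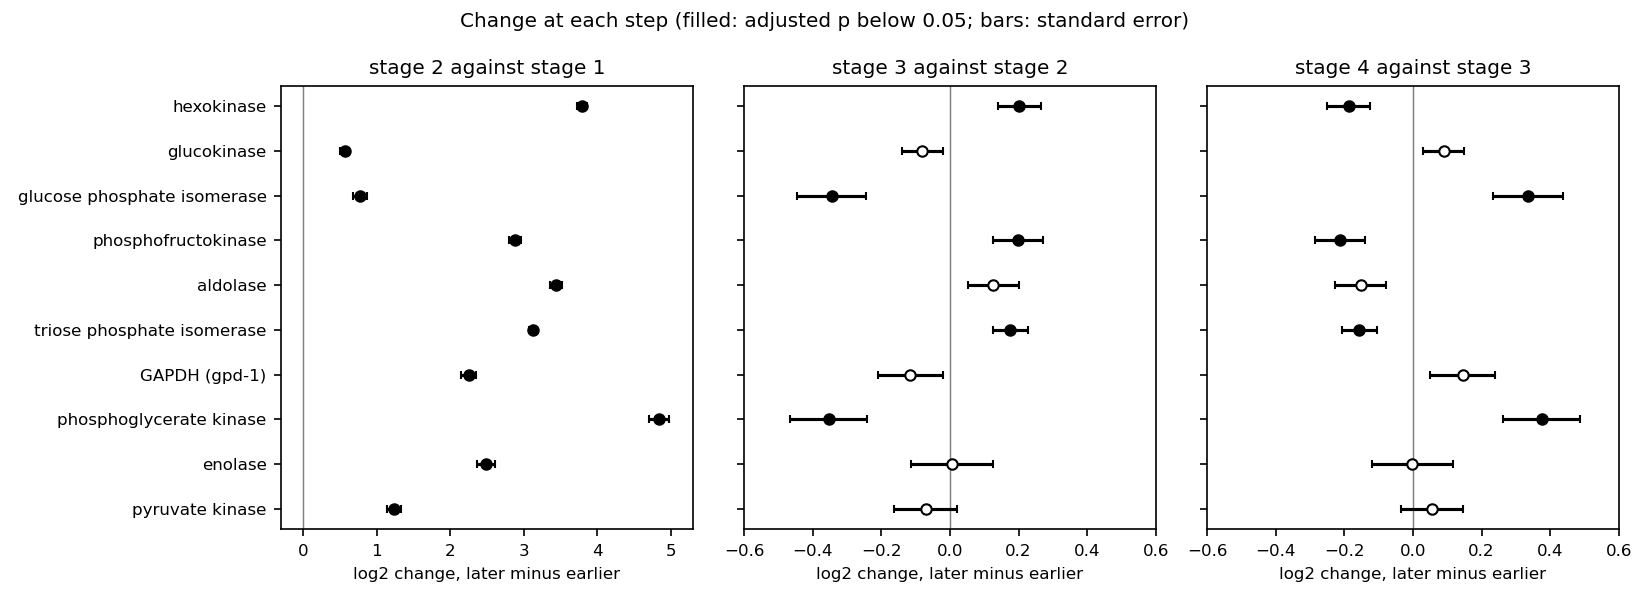
Log2 change of the 10 genes in the order of the pathway, for stage 2 against 1 (left, its own axis), stage 3 against 2 and stage 4 against 3, with bars of 1 standard error and filled points where the edgeR adjusted p was below 0.05. The changes lie between 0.57 and 4.84 on the left and between -0.35 and 0.38 in the other panels, where phosphofructokinase and phosphoglycerate kinase move in opposite directions.

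From stage 2 to stage 3 the genes no longer moved together. Hexokinase, phosphofructokinase and triose phosphate isomerase were higher in stage 3, and glucose phosphate isomerase and phosphoglycerate kinase were lower. That is 3 of 10 higher, against 20.8% of tested genes, and 2 of 10 lower, against 18.2%, so both shares are near the background. The median log2 change was -0.03, beside 0.00 for all tested genes. Hexokinase changed by 0.20 (SE 0.06, edgeR adjusted p = 0.0203), phosphofructokinase by 0.20 (SE 0.07, adjusted p = 0.0460) and triose phosphate isomerase by 0.18 (SE 0.05, adjusted p = 0.0153). The fall was -0.34 for glucose phosphate isomerase (SE 0.10, adjusted p = 0.0161) and -0.35 for phosphoglycerate kinase (SE 0.11, adjusted p = 0.0238).

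The other members did not pass the test at this step. Aldolase changed by 0.13 (edgeR adjusted p = 0.196), glucokinase by -0.08 (0.314), gpd-1 by -0.12 (0.365), pyruvate kinase by -0.07 (0.582) and enolase by 0.01 (0.976). All 3 stage 3 libraries lay above stage 2 in 4 of the 10 (28.2% of tested genes) and below it in 5 of the 10 (26.6%), enolase being the gene that overlapped.

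Of these small calls, all but that of glucose phosphate isomerase were lost in some fits that left out a library. With 1 library left out at a time, 2 or 3 of the 10 genes were called, except without stage 1 replicate 1 (4 called) or stage 1 replicate 3 (5 called). Glucose phosphate isomerase remained called in all 12 such fits. For phosphoglycerate kinase the call was lost without stage 3 replicate 2, the library rich in rRNA (log2 change -0.23, adjusted p = 0.0742), where it had its lowest value. Hexokinase lost its call without stage 1 replicate 2, stage 3 replicate 2, stage 4 replicate 1 or 3, or any stage 2 library (adjusted p = 0.0532 to 0.141). Triose phosphate isomerase lost it without stage 3 replicate 1 or 3 or any library of stages 2 and 4 (0.0537 to 0.137). Phosphofructokinase kept it only without stage 1 replicate 3 or stage 3 replicate 2, and otherwise stood at 0.0677 to 0.218. With all stage 4 libraries out of the fit the 3 higher calls were lost, at adjusted p = 0.0681 for hexokinase, 0.0905 for phosphofructokinase and 0.0822 for triose phosphate isomerase. Scaled by library totals alone, 0 of the 10 were called. The changes of glucose phosphate isomerase (-0.42, adjusted p = 0.126) and phosphoglycerate kinase (-0.42, 0.134) were then larger in size, and those of the other 3 smaller (0.08 to 0.10). The share of all tested genes called with library totals is not given here. The loss of calls with that scaling is therefore not read as a trait of these genes.

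From stage 3 to stage 4 glucose phosphate isomerase and phosphoglycerate kinase were higher, and hexokinase, phosphofructokinase and triose phosphate isomerase were lower. That is 2 of 10 higher (18.2% of tested genes) and 3 of 10 lower (20.8%). The stage 3 libraries are shared with the preceding comparison. Glucose phosphate isomerase changed by 0.34 (SE 0.10, edgeR adjusted p = 0.0186) and phosphoglycerate kinase by 0.38 (SE 0.11, 0.0176). Hexokinase changed by -0.19 (SE 0.06, 0.0292), phosphofructokinase by -0.21 (SE 0.07, 0.0336) and triose phosphate isomerase by -0.16 (SE 0.05, 0.0264).

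Leaving out a library again ended most of these calls. In each of the 12 fits only 2 of the 10 genes were called, except without stage 1 replicate 1 (4 called) or stage 1 replicate 3 (5 called). Without stage 3 replicate 2 the calls of glucose phosphate isomerase (log2 change 0.23, adjusted p = 0.0533) and phosphoglycerate kinase (0.25, 0.0523) were lost, and the latter was also lost without stage 4 replicate 2 (0.34, 0.0548). Hexokinase kept its call only without stage 1 replicate 1 or 3 and otherwise stood at an adjusted p of 0.0551 to 0.183. Triose phosphate isomerase kept it only without stage 1 replicate 1 or 3 or stage 3 replicate 2 (otherwise 0.0828 to 0.191), and phosphofructokinase only without stage 1 replicate 3, stage 3 replicate 2 or stage 4 replicate 2 (otherwise 0.0545 to 0.244). Library totals gave 0 calls here too, with larger changes for glucose phosphate isomerase (0.45, adjusted p = 0.0904) and phosphoglycerate kinase (0.49, 0.0741) and smaller ones for the other 3 (-0.08 to -0.02). At this step as well the share of all tested genes called with library totals is not given, and the same limit holds.

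Between stages 2 and 4 no change was called. By edgeR 0 of the 10 genes and 0.0% of tested genes passed, and at an unadjusted p below 0.05 the counts were 0 of 10 and 136 of 8330 genes (1.63%). DESeq2 called 0 of the 10 and 1 gene in all. The log2 changes of the 10 lay between -0.03 (aldolase) and 0.03 (gpd-1), with standard errors of 0.05 to 0.12.

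Within stages, single libraries shifted many of the genes at once. In stage 4, replicate 2 had the highest value of the 3 for all 10 genes, and their summed level was 1.61% there against 1.40% and 1.46% in the others. That library also had the lowest rRNA share (1.68%) and the lowest total. In stage 3, replicate 2 was the lowest for 7 of the 10 and the highest for hexokinase and aldolase. In stage 1, replicate 1 was the lowest for 6 of the 10, most of all for enolase, and replicate 2 the highest for 8. The shares of all tested genes that were highest or lowest in these libraries are not given here. Whether the shifts are particular to the 10 genes or common to many others is thus not known. The part of rRNA share and depth in these shifts was not tested.

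Levels of different genes were compared per kb of annotated gene span (introns and untranslated parts included), scaled to a sum of 1000000 over 9757 protein-coding genes. On this scale gpd-1 was the highest of the 10 in every stage and rose from 1085 ± 116 to 5423 ± 73 from stage 1 to stage 2 (SD, n = 3). It stood at 5195 ± 477 in stage 3 and 5537 ± 307 in stage 4, and moved from rank 163 of all protein-coding genes in stage 1 to rank 10 in each later stage. Enolase was next, at 496 ± 96 in stage 1 and 2927 ± 20 in stage 2, going from rank 344 to rank 79.

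The order below them changed with germination. In stage 1 pyruvate kinase (283 ± 42) was next, then glucose phosphate isomerase (169 ± 18), aldolase (123 ± 11), glucokinase (118 ± 7.7), triose phosphate isomerase (91.6 ± 2.2), phosphoglycerate kinase (66.6 ± 7.6), phosphofructokinase (28.5 ± 2.3) and hexokinase (11.8 ± 0.80, rank 5279). The libraries of aldolase and glucokinase overlapped, and no other neighbours in this order did. In stage 2 phosphoglycerate kinase (2006 ± 32) came after enolase, then aldolase (1405 ± 4.7), triose phosphate isomerase (837 ± 9.0), pyruvate kinase (697 ± 16), glucose phosphate isomerase (303 ± 3.9), phosphofructokinase (220 ± 2.5), glucokinase (183 ± 3.5) and hexokinase (173 ± 4.2), with no overlap between neighbours. Phosphoglycerate kinase thus went from place 8 to place 3 and pyruvate kinase from place 3 to place 6.

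In stage 3 hexokinase (207 ± 12) passed glucokinase (179 ± 5.2), and phosphofructokinase (262 ± 7.7) came level with glucose phosphate isomerase (247 ± 33). The libraries overlapped there for phosphofructokinase and glucose phosphate isomerase, for glucose phosphate isomerase and hexokinase, and for phosphoglycerate kinase and aldolase. Stage 4 had the order of stage 2. The ratio of the highest to the lowest of the 10 narrowed from 91.6 in stage 1 to 31.4 in stage 2, and was 29.0 in stage 3 and 31.7 in stage 4.

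**Figure D3:**
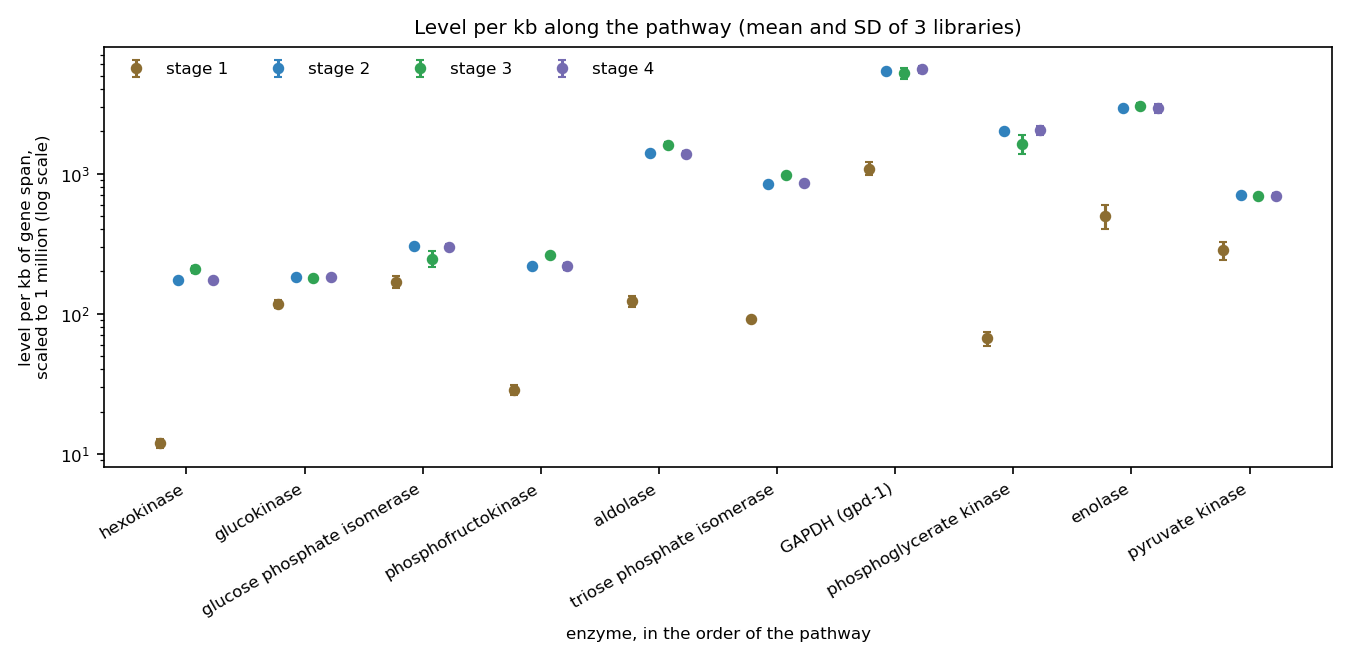
Level per kb of gene span (scaled to a sum of 1000000, log axis) of the 10 genes in pathway order, as mean and SD of 3 libraries for each stage. Enzymes from gpd-1 to enolase have the highest means after stage 1, though the stage 3 libraries of phosphoglycerate kinase and aldolase overlap. Hexokinase at 11.8 and phosphofructokinase at 28.5 are the lowest points in stage 1.

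Ratios between genes of 1 library do not depend on how libraries are scaled. Phosphofructokinase over glucose phosphate isomerase, per kb, was 0.169 ± 0.016 in stage 1, 0.727 ± 0.014 in stage 2, 1.07 ± 0.13 in stage 3 and 0.724 ± 0.039 in stage 4 (SD, n = 3). Hexokinase over glucokinase went in the same way from 0.101 to 0.947, then 1.15 ± 0.10 and 0.950 ± 0.016. For both ratios each stage 3 library lay above each library of stages 2 and 4. Replicate 2, the library rich in rRNA, was the highest of stage 3 in both. It had 1.22 for the former ratio (0.962 and 1.04 in replicates 1 and 3) and 1.27 for the latter (1.11 and 1.08).

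Phosphoglycerate kinase over enolase was 0.136 ± 0.015 in stage 1, 0.685 ± 0.012 in stage 2, 0.532 ± 0.063 in stage 3 and 0.695 ± 0.014 in stage 4. Each stage 3 library, from 0.459 in replicate 2 to 0.572, lay below all libraries of stages 2 and 4. Pyruvate kinase over enolase took the opposite course at the start, falling from 0.573 ± 0.035 to 0.238 ± 0.0048 and then lying at 0.226 and 0.236. Of the 6 ratios computed, that of aldolase to triose phosphate isomerase varied least between stages, from 1.34 ± 0.12 in stage 1 to between 1.62 and 1.68 later.

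**Figure D4:**
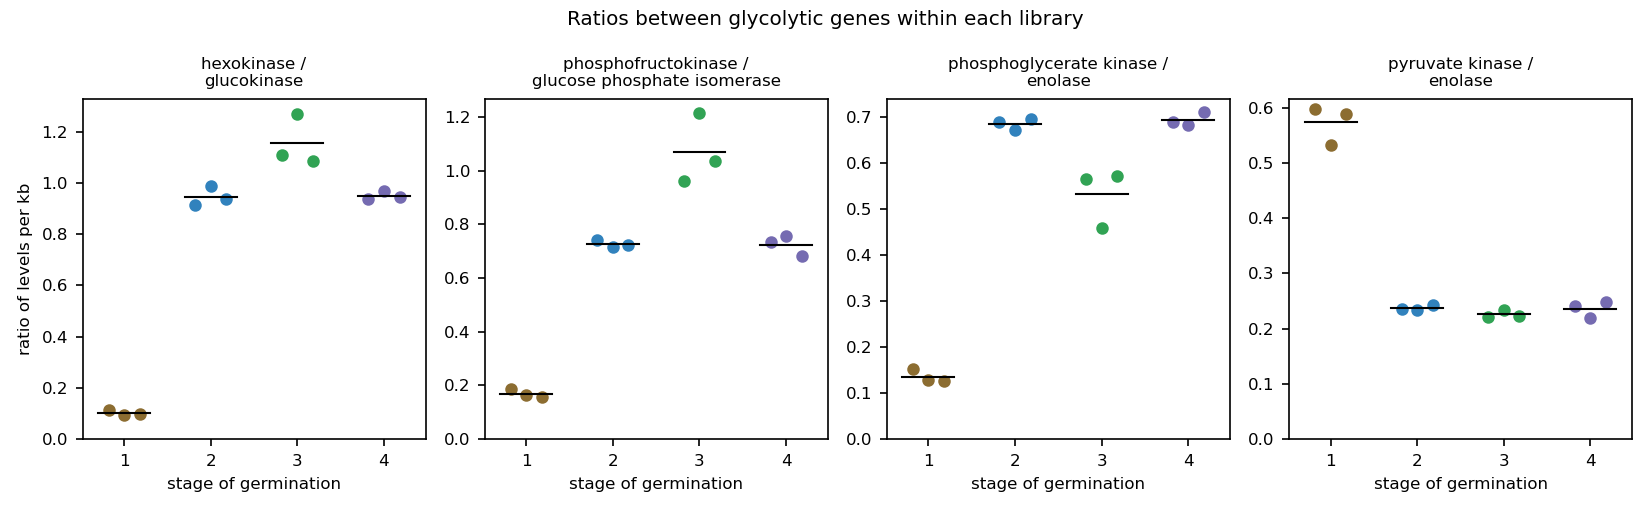
Ratio of levels per kb for 4 pairs of glycolytic genes in each library of stages 1 to 4, on linear axes from 0, with replicates 1, 2 and 3 from left to right and a line at the mean. The points of stage 3 lie apart from those of stages 2 and 4 in the first 3 panels, most of all for replicate 2 (1.27 for hexokinase over glucokinase). Those of stage 1 lie apart in all 4.

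The makeup of the glycolytic counts changed accordingly. As a share of the summed CPM of the 10 genes, gpd-1 made up 32.1% in stage 1 and 30.7% in stage 2 and enolase 20.9% and 23.7%. Pyruvate kinase went from 22.0% to 10.4% and glucokinase from 7.88% to 2.33%, while phosphoglycerate kinase went from 2.11% to 12.1% and aldolase from 4.79% to 10.4%.

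For 5 of the 10 genes the annotated span overlaps that of a neighbour. The neighbours of glucokinase (NCU14040, an RNA gene) and phosphofructokinase (NCU00630) had at most 2.85 and 8.88 CPM. Next to triose phosphate isomerase, NCU07549 had 159 ± 23 CPM in stage 1, more counts than triose phosphate isomerase itself at 68.0 ± 1.0 CPM, and 131 ± 6.0 CPM in stage 2. NCU07913, next to phosphoglycerate kinase, had 17.1 ± 1.9 CPM in stage 1 and 83.5 ± 6.3 CPM in stage 2. Beside pyruvate kinase, NCU06076 had 145 ± 2.7 and 106 ± 6.7 CPM, and NCU06074 at most 0.28 CPM (SD, n = 3). Libraries were made with strand kept. How the counting shared reads between overlapping genes is not given in the sources used here, so the stage 1 values of triose phosphate isomerase, phosphoglycerate kinase and pyruvate kinase carry that limit.

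Genes of adjoining pathways were taken by their symbols in the annotation. The gene emp-6 (NCU02252), whose symbol belongs to the same series as emp-1, emp-3 and emp-7, was higher in stage 2 with 758 CPM against 182 CPM in stage 1 (log2 change 2.06). At this step 39.4% of all tested genes were higher and 37.9% lower, with a median log2 change of 0.01. Gluconeogenesis runs the pathway backwards past its irreversible steps, and of its 3 genes 2 were lower in stage 2 and 1 was higher, with a median log2 change of -2.28. The largest fall was that of acu-6 (NCU09873, phosphoenolpyruvate carboxykinase), from 22.5 to 2.04 CPM (log2 change -3.46). The gene fbp-1 (NCU04797, fructose 1,6-bisphosphatase), which undoes the step of phosphofructokinase, was at 11.4 CPM in stage 1 and 2.33 CPM in stage 2 (-2.28). The higher gene was suc (NCU02505, pyruvate carboxylase), with 1255 and 1894 CPM (0.59, edgeR adjusted p = 0.0015).

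In the list for the use of pyruvate, fermentation genes included, 5 of 5 were higher, beside 39.4% of tested genes, with a median log2 change of 0.68. The largest rise among them was that of adh-1 (NCU01754, alcohol dehydrogenase), from 3.34 to 14.9 CPM (2.16). Its stage 2 mean was raised by replicate 2, with 24.5 CPM against 10.7 and 9.44 CPM in the others. The call held in the fits that left out libraries, with changes of 1.61 to 2.42. The acetate-requiring genes ace-2, ace-3 and ace-4, which belong to the pyruvate dehydrogenase complex, changed by 0.53 to 0.82. The rise of cfp (NCU02193, pyruvate decarboxylase) was marginal (0.56, edgeR adjusted p = 0.0460) and rested on stage 2 replicate 2. That library had 197 CPM against 93.8 and 103 CPM in the other stage 2 libraries and 86.8 to 90.6 CPM in stage 1. Without it the change was 0.16 (adjusted p = 0.381), and the call was also lost without any stage 1 library or stage 3 replicate 3 (0.0521 to 0.0870). In the citric acid cycle, which burns the acetyl groups made from pyruvate, 12 of 17 genes were higher (39.4% of tested genes) and 4 lower (37.9%), with a median of 0.47. Among these, tca-3 lost its call without stage 1 replicate 1 or any stage 2 library (adjusted p = 0.0520 to 0.120). The gene tca-13 (-0.22) lost its call in 8 of the 12 fits that left out a library, all except those without stage 1 replicate 1 or a stage 3 library, and in the fit without stage 4 (adjusted p = 0.0855). The largest rise there was that of tca-16 (NCU06211), from 46.9 to 236 CPM (2.33), and the largest fall that of tca-12 (NCU08336), from 1501 to 981 CPM (-0.61). The median of the 10 glycolytic genes, 2.69, was above that of each of these lists, a difference that is given as a description.

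From stage 2 to stage 3, 1 gene of the citric acid cycle was higher and 2 were lower of 17 (20.8% and 18.2% of tested genes), with a median log2 change of -0.06. The gene emp-6 was lower by -0.24 (edgeR adjusted p = 0.0303) and higher again by 0.26 from stage 3 to stage 4 (0.0212). The fall was lost without stage 2 replicate 2 (adjusted p = 0.0578) or stage 3 replicate 2 (0.0806), and the rise without stage 3 replicate 2 (0.0594) or stage 4 replicate 2 (0.0589). In the fit to all 12 libraries the fermentation genes moved most. The gene adh-1 had 3.58 CPM in stage 3 against 14.9 CPM in stage 2 (-2.05, edgeR adjusted p = 0.0009). For cfp the values were 58.3 and 131 CPM (-1.17, 0.0018). Stage 2 replicate 2 was high for both, with 24.5 CPM for adh-1 (10.7 and 9.44 CPM in the other stage 2 libraries). For cfp it had 197 CPM (93.8 and 103 CPM in the others). Both calls held in the fits that left out libraries, with changes of -2.32 to -1.51 for adh-1 and -1.40 to -0.79 for cfp. Gluconeogenesis had 1 gene higher, acu-6 (0.96), and 1 lower, suc (-0.41), of 3, with a median of 0.38. The call of suc was lost without any stage 2 library or stage 3 replicate 1 or 2 (adjusted p = 0.0513 to 0.0998).

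The 5 genes outside the pathway whose course was closest to the mean course of the 10 were found by the root mean square difference of centred log2 (CPM + 1) over the 12 libraries. NCU00669 was the nearest (0.0523), followed by NCU08167 (0.0751), met-8 (NCU06512, methionine synthase, 0.0823), NCU07060 (0.0860) and rpn-7 (NCU03972, which carries the name of a proteasome subunit of yeast, 0.0870). Among the 10 themselves this difference was 0.0821 for enolase, 0.143 for gpd-1, 0.204 for phosphofructokinase and up to 0.962 for phosphoglycerate kinase. The nearest genes spanned a wide range of levels, with 605 ± 85 CPM in stage 1 and 3505 ± 125 CPM in stage 2 for met-8 and 2.36 ± 0.47 and 17.9 ± 0.48 CPM for NCU08167 (SD, n = 3). Adding 1 to the CPM makes the changes of low genes smaller on this scale. By edgeR the log2 change from stage 1 to stage 2 was 2.93 for NCU08167 and 2.82 for NCU07060, with 4.35 CPM in stage 1. It was 2.58 for NCU00669, 2.53 for met-8 and 2.39 for rpn-7. A mean course is matched by genes near its middle, so this likeness is a description with no test.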

How the data were processed

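RNA was sequenced from 12 libraries, 3 at each of 4 stages. According to the labels and the study's methods, reads were trimmed and aligned by the authors to the OR74A genome (HISAT2 2.1.0), from which they made the deposited table of estimated counts (expected counts in whole numbers, not normalized) with StringTie 1.3.3b and its script for count tables. Such counts are derived from coverage, so that 1 fragment can add more than 1 count. The errors given are SDs over 3 libraries or standard errors of the fit, and both include the spread between libraries. A deposited table of the authors' own comparison of stages (relative expression with interval widths, acceptance ratio and log-likelihood) was not used.

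Low genes were removed by filterByExpr with a count minimum of 10 and a total minimum of 15, and libraries were scaled with TMM. The quasi-likelihood test of edgeR 4.0.16 in R 4.3.3 was fitted to all 12 libraries with 1 coefficient per stage. P-values were adjusted by the Benjamini-Hochberg method over the 8330 genes tested, with a threshold of 0.05, and standard errors are the change over the square root of F. Symbols, spans and coordinates are those of RefSeq for NC12 (10590 IDs matched). This table gives the span of a gene and no transcript length, so levels per kb use the span.

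The genes named were all 10 members, the called gene with the largest rise and the largest fall from stage 1 to stage 2 of each adjoining list (with 10 CPM or more in the higher of both stages), and the 5 genes nearest to the mean course. Other genes were named after their values were seen. The members and lists were chosen with earlier results of these data known. Adjoining lists were built from symbols, and no symbol matched for the pentose phosphate pathway. Alternatives were the size factors of DESeq2, library totals, scaling without rRNA genes, no filter, DESeq2 1.42.0, a replicate block, leaving out each library, a fold limit and, chosen after seeing the data, leaving out stage 4. Python 3.11.15 was used for summaries.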

Additional observations from a re-analysis of the deposited data

How the results depend on the processing

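All 10 genes remained higher in stage 2 and in stage 4 than in stage 1 under each alternative in which these were run, and 8 of 10 with a fold limit of 2. Stage 3 against stage 1 gave 9 with library totals, where glucose phosphate isomerase had an adjusted p of 0.0785, 8 with the fold limit, and 10 otherwise. With library totals, which moved the median change of all genes to -0.10 from stage 2 to 3 and to 0.13 from stage 3 to 4, both steps had 0 calls among the 10. The share of all tested genes called with that scaling is not given beside this. A fold limit of 2 also left 0 in each. Leaving out all stage 4 libraries left 2 calls from stage 2 to 3. Without single libraries both steps had between 2 and 5 calls, and stage 4 against stage 2 had 0. The remaining alternatives gave 4 or 5. No called change turned its direction. The cause of the lost calls was not tested, and some of the fits also held fewer libraries.

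With library totals the summed level was 15090 CPM in stage 2 (14812 with TMM) and 15603 CPM in stage 4 (14908 with TMM). In stage 3 it was 13637 ± 3390 CPM, against 14248 ± 812 CPM with TMM (SD, n = 3). Stage 3 replicate 2 then stood at 9729 CPM, beside 15404 and 15779 CPM in replicates 1 and 3. With rRNA genes left out of the scaling, the summed level was 16303, 15680 and 16410 CPM in stages 2, 3 and 4. With TMM and without single libraries, it ranged from 2819 to 3183 CPM in stage 1 and 14720.1 to 14918 in stage 2. The ranges were 13954 to 14711 in stage 3 and 14304 to 15371 in stage 4.

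A replicate block in the fit gave 10, 5 and 5 calls at the 3 successive steps, as without it. Deviations of libraries with the same number correlated by -0.32 to 0.22 (18 pairs), and no source says that numbers mark shared plates or days. Values below 3 counts, 0.0413 to 0.0662 CPM, are not distinguishable from 0.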
